A study of Drosophila melanogaster with 14 samples.

Results

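The 155 genes described here carry only a CG number in the tables deposited with the study and had lower transcript levels in sgg isoB null embryos than in their controls, with levels close to the control in sgg isoA null embryos. They were selected on the readout itself. A gene entered when its mean over the 14 samples was at least 2 CPM (the count of a gene divided by the total of its sample and put on a common scale), when the log2 ratio of the mean CPM in isoB null samples to that in isoB control samples was at most -0.7, and when the same ratio in the isoA experiment lay between -0.3 and 0.3. A value of 0.5 CPM was added to both means. The rule left out CG7409 and CG5290 by name. Of 17493 genes counted, 4171 had a CG number in both of the study's result tables, 3698 of these had a mean of at least 2 CPM, and 155 (4.19%) met both cutoffs. Among genes with a name and a mean of at least 2 CPM, 104 of 5685 (1.83%) met the same cutoffs. Because these ratios chose the members, the lower level in isoB and the small ratio in isoA are given below as a description, with no test.

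The gene shaggy (sgg), on the X chromosome, encodes the fly Glycogen Synthase Kinase 3, a kinase that acts in Wnt signalling among other pathways. Its major proteoforms differ in their C terminus, and the sgg isoA and sgg isoB alleles each lack the unique C-terminal exon of one class. Between 10 and 15 h after egg laying the germ layers of the fly embryo have formed and tissues such as muscle, nervous system, trachea and epidermis differentiate. Late in embryogenesis the epidermis secretes the larval cuticle, a layered matrix of chitin and protein. A CG number is the identifier that the genome annotation gives to a gene model, and it stays in place until the gene receives a name, so such genes are mostly ones whose function had not been described under that number.

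Poly(A) RNA was collected from embryos aged 10 to 15 h. The sgg isoB null group held 4 samples of non-fluorescent embryos from mothers with one sgg isoB chromosome over the FM7 GFP balancer and FM7 GFP fathers. The mothers also carried wild type sgg, so these embryos were null for the zygotic product only, and the allele is lethal in the late embryo or early larva. The isoB control group held 4 samples of non-fluorescent embryos, also labelled attP40. The study's methods give their mothers as +/FM7 GFP and their fathers as FM7 GFP, while its results call this control the progenitor stock. The study describes the isoB null embryos as hemizygous males, and in such a cross the daughters carry the fluorescent chromosome of the father. The sgg isoA null group held 3 samples from homozygous mothers and hemizygous fathers of a viable and fertile stock, and so lacked the maternal and the zygotic product. The isoA control group held 3 samples of the progenitor stock, with the same attP40 label. Both alleles were made by CRISPR deletion of the exon with a DsRed marker that was removed with Cre. Nothing in the sources used here says how many embryos each sample held. The embryos of the isoB experiment were sorted by fluorescence, which leaves males, and those of the isoA experiment were not sorted by fluorescence or sex, so a level set side by side across the experiments also compares these collections.

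The guides that the study lists for making each deletion allele are shown because they define the mutant groups. The lower case letters are the guide, written 5′ to 3′, and the capitals are the protospacer adjacent motif that Cas9 needs beside its target. The study lists all of them for the sgg deletions, and their positions were not checked here.
A_sgg_gRNA_1: agaaaccgaggcagcggcgtCGG
A_sgg_gRNA_2: gccctcaatagcagcggaagTGG
B_sgg_gRNA_1: cgggatatattgatcgtccaTGG
B_sgg_gRNA_2: gttgttgttgttgtgggtgtAGG

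Total counts per sample were 14378062 to 25124367 in isoB nulls, 11189291 to 23798611 in isoB controls, 15841397 to 18311205 in isoA nulls and 8082962 to 12800846 in isoA controls. A count of 3 corresponded to 0.119 to 0.371 CPM. The counts sum over all transcripts of sgg and cannot show the loss of 1 exon. In total sgg was at 254 to 331 CPM in isoB nulls and 322 to 388 CPM in isoB controls, and at 281 to 325 CPM in isoA nulls and 182 to 271 CPM in isoA controls. Marker transcripts of neurons, glia, muscle, epidermis, trachea and midgut were present in every sample, while the fat body markers Fbp1, Lsp1alpha and Lsp2 stayed under 1 CPM in each of them. The 4 hemocyte markers summed to 267 to 331 CPM in isoB nulls and 204 to 221 CPM in isoB controls. The 4 epidermis markers summed to 781.4 to 1039 CPM in isoB nulls and 726 to 780.8 CPM in isoB controls, so these groups nearly touched. Gene by gene, srp, Pxn and shg were higher in every isoB null than in every isoB control. Hml, NimC1, Cad99C, kkv and ovo overlapped between the isoB groups. The muscle marker Mlc2 was lower in every isoB null (2526 to 3253 CPM) than in every isoB control (3382 to 4373 CPM). The other muscle markers, Mhc, Act57B and up, overlapped. In the isoB experiment the 4 stress markers (Hsp23, Hsp26, Hsp68 and Hsf) summed to 632 to 1391 CPM in nulls and 120 to 160 CPM in controls. The part of these hemocyte, epidermis, muscle and stress markers in the values of the members was not tested. One isoA control, number 3, stood apart with 29.8 CPM of the hemocyte gene Hml, which was at most 3.70 CPM elsewhere. The other hemocyte markers did not all follow. In this sample srp was at 33.5 CPM, against 50.7 and 38.8 CPM in isoA controls 1 and 2. NimC1 was at 9.79 CPM there, against 13.5 and 13.6 CPM, and Pxn at 151 CPM, against 143.6 and 118 CPM. In bulk RNA of whole embryos, fewer cells of a type and less RNA per cell cannot be told apart.

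The 155 members lay at moderate levels. Their mean over 14 samples ran between 2.03 and 387 CPM with a median of 15.1 CPM, 37 of them were under 5 CPM, 96 between 5 and 100 CPM, and 22 at 100 CPM or more. Over the members the median of the group means was 9.13 CPM in isoB nulls and 18.3 CPM in isoB controls, and 16.8 CPM in isoA nulls and 17.95 CPM in isoA controls. The isoB null mean was the lowest of the 4 group means for 140 members (90.3%), against 33.6% of all genes tested in isoB. For 46 members (29.7%) every isoB null sample lay below every one of the other 10 samples, against 5.13% of all genes. These shares follow in part from the rule, which used the same samples, and they set sorted male embryos against unsorted ones of the isoA experiment. The log2 ratio of the rule ran down to -1.87 in isoB, with a median of -0.89, and 50 members were at -1 or below.

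**Figure D1:**
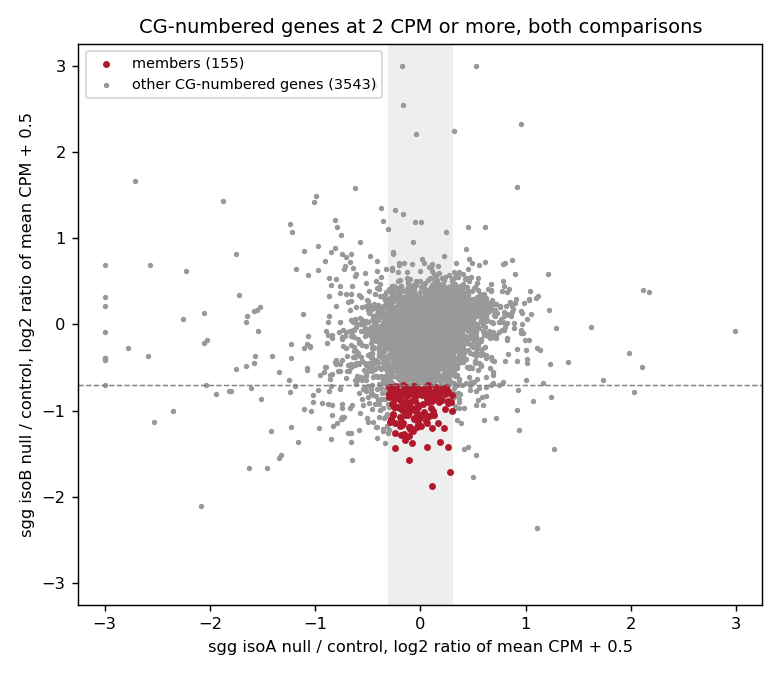
Log2 ratio of mean CPM plus 0.5 in the isoA comparison (horizontal) and in the isoB comparison (vertical), null over control, for the CG-numbered genes with a mean of at least 2 CPM, drawn to ±3. The 155 members (red) lie by the rule in the grey band of ±0.3 and below the dashed line at -0.7, on the edge of a continuous cloud of 3543 other genes.

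The members were cut out of a continuous distribution. Of the 297 CG-numbered genes at a log2 ratio of -0.7 or below in isoB, 155 were within ±0.3 in isoA, 98 were below -0.3 and 44 above 0.3, as the plot of both ratios shows. Just inside the isoB cutoff were CG13133 at -0.703, CG15650 at -0.703 and CG11380 at -0.71, and just outside it CG45060 at -0.699, CG10657 at -0.698 and CG11550 at -0.697. At the upper isoA cutoff, CG34267, CG6700 and CG32669 were inside at 0.2997, 0.296 and 0.291, and CG13545, CG7881 and CG32483 outside at 0.305, 0.309 and 0.310. At the lower isoA cutoff, CG1208, CG5687 and CG16885 were inside at -0.2995, -0.2986 and -0.2975, and CG13950, CG3823 and CG14454 outside at -0.3002, -0.3016 and -0.3049. The values ran on across each cutoff without a gap.

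In a fit over all genes kept by filterByExpr (edgeR's quasi-likelihood test with Benjamini-Hochberg adjustment, where a call needed an adjusted p no higher than 0.05 and a change of 0.7 or more on the log2 scale), 101 of the 155 members were called lower in isoB nulls, where 3.58% of the 10693 genes tested were called lower. For 118 members every isoB null sample lay below every isoB control sample, against 14.01% of all genes. The fitted log2 fold changes of the members ran between -2.29 and -0.70 with a median of -0.92, and their standard errors between 0.10 and 1.16 with a median of 0.23. In the isoA experiment 0 of 155 members were called by edgeR, DESeq2 or limma-voom, and 0.971% of all 10397 genes were called by edgeR. In edgeR 1 member had an unadjusted p under 0.05, against 18.9% of all genes tested in isoA. The fitted isoA values ran between -0.40 and 0.31 with a median of -0.12, and 104 of the 155 were negative. The null and control samples of isoA overlapped for 153 members, a count for which the share over all genes was not computed. All of these counts restate contrasts that the rule used, and nothing is read from them about the members.

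The 8 members with the lowest isoB ratio had means between 2.19 and 185 CPM in isoB controls, and 4 of them were called. CG14205 (X, 19592609 to 19595548, 713 codons) was at 0.487, 2.12, 0.744 and 0.279 CPM in isoB nulls 1 to 4, against 8.82, 4.38, 3.93 and 1.45 CPM in isoB controls 1 to 4. Null 2 exceeded control 4, so the groups overlapped, and the log2 fold change of -2.29 with a standard error of 0.65 was not called. The isoA samples lay above most of these values, at 5.93, 14.3 and 4.61 CPM in nulls and 11.3, 5.81 and 5.67 CPM in controls.

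CG4830 (3R, 12208159 to 12210360) rested on 1 sample. It was at 0.835, 1.68, 0.455 and 0.796 CPM in isoB nulls and at 15.5, 0.536, 0.624 and 0.219 CPM in isoB controls, and without control 1 its fitted log2 fold change was 1.07, so the direction turned. It was not called in either fit. The isoA samples also varied, with 3.10, 3.71 and 7.20 CPM in nulls and 1.33, 8.41 and 1.55 CPM in controls.

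CG4563 and CG18577 were low in every isoB null. CG4563 (2R, 24451084 to 24453040, 537 codons) was at 0.626, 0.719, 0.496 and 0.318 CPM in isoB nulls, against 3.15, 2.14, 3.79 and 1.27 CPM in isoB controls, a log2 fold change of -2.25 with a standard error of 0.39. CG18577 (3R, 11196092 to 11197285, 114 codons) was at 0.417, 0.440, 0.496 and 0.677 CPM in isoB nulls, against 2.27, 2.41, 2.59 and 1.49 CPM in isoB controls, a log2 fold change of -2.06 with a standard error of 0.27. For both genes the highest isoB null lay below the lowest of the other 10 samples, and both stayed called when any 1 sample of the isoB experiment was left out. In isoA, CG18577 was at 3.10, 4.48 and 4.55 CPM in nulls and at 4.37, 4.08 and 1.37 CPM in controls, where control 3 was the low one.

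The remaining members among the lowest 8 differed in which samples were low. CG30371 (2R, 399 codons) was at 2.09, 3.24, 2.27 and 0.637 CPM in isoB nulls, against 5.17, 7.33, 7.90 and 5.04 CPM in isoB controls, without overlap, and was called at -1.60 with a standard error of 0.40. CG4229 (3L, 256 codons) was at 20.5, 33.2, 14.7 and 10.9 CPM in isoB nulls, against 67.4, 48.5, 64.6 and 27.5 CPM in isoB controls, and was called at -1.37 with a standard error of 0.36 although null 2 lay above control 4. CG9360 (X, 251 codons) was at 135, 48.9, 44.2 and 43.9 CPM in isoB nulls and 91.7, 218, 127 and 304 CPM in isoB controls. Its null 1 stood in the range of the controls, and the log2 fold change of -1.45 with a standard error of 0.46 was not called. CG33110 (3R, 337 codons) was at 7.65, 3.88, 1.82 and 0.637 CPM in isoB nulls and 22.2, 7.33, 7.27 and 2.72 CPM in isoB controls, with overlap and no call.

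**Figure D2:**
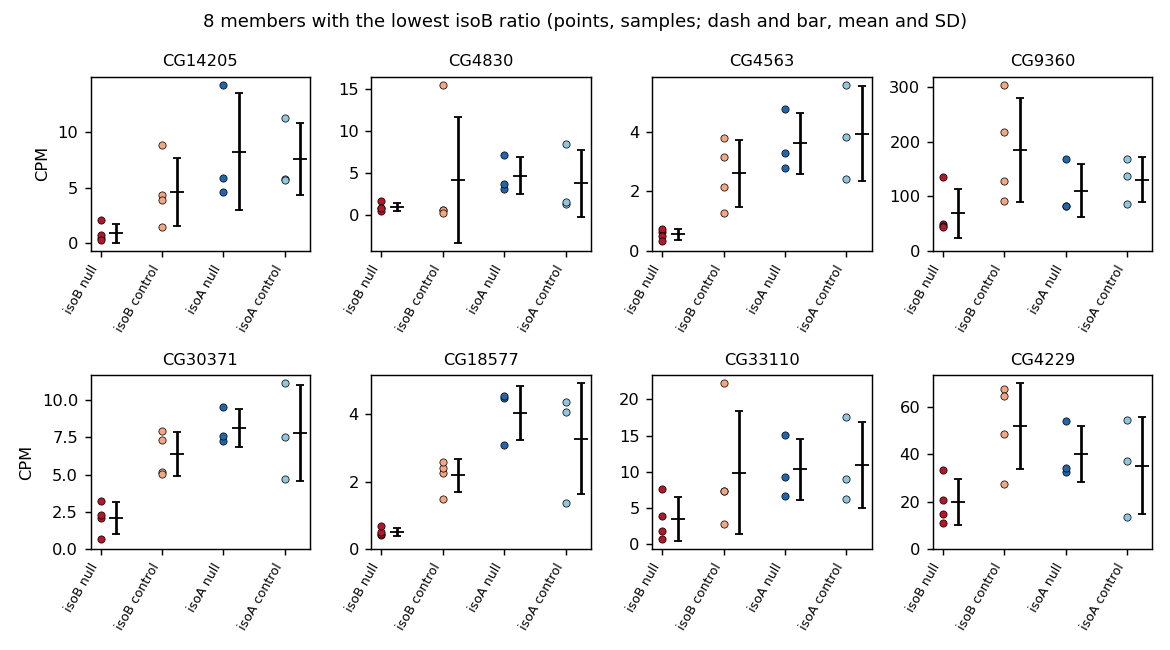
CPM of the 8 members with the lowest isoB ratio in each sample (points), by group, with the group mean and SD beside them (dash and bar; n = 4 for each isoB group and 3 for each isoA group). CG4563, CG30371 and CG18577 have all 4 isoB nulls below all other samples, while the isoB control mean of CG4830 rests on the 1 sample at 15.5 CPM.

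The members with the most reads behind them are given next as a description. All 8 members with the largest mean CPM had every isoB null below every isoB control. This held for 76.1% of all members and 14.01% of all genes tested. Of the 8, 3 (CG13731, CG10953 and CG16885) were called, where 65.2% of all members and 3.58% of all genes were called lower. In 5 of the 8 isoB null 2 was the lowest null, against 56.8% of all members and 27.7% of all genes. The rule picked the members on this contrast, so nothing is read from these counts about members with a large mean CPM. CG13731 (3L, 17383636 to 17388956, 792 codons) was at 344, 294, 291 and 195 CPM in isoB nulls, against 572, 506, 660 and 411 CPM in isoB controls, a log2 fold change of -0.92 with a standard error of 0.18. CG10953 (2R, 17165084 to 17166643, 278 codons) was at 207, 222, 162 and 150.4 CPM in isoB nulls, against 545, 402, 465 and 265 CPM in isoB controls, a log2 fold change of -1.16 with a standard error of 0.21. Its isoA samples were at 249, 506 and 271 CPM in nulls and at 470.0, 370.3 and 182 CPM in controls, so that 1 isoA control lay within the range of the isoB nulls.

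In CG2781, CG12164, CG2150 and CG30427 isoB null 2 stood far below the other nulls, which were themselves below every control. CG2781, now named Elovl7 and a member of the family of very long chain fatty acid elongases, was at 314, 119, 284 and 389 CPM in isoB nulls, against 425, 531, 541 and 491 CPM in isoB controls. CG12164 (2R, 329 codons) was at 346, 113, 298 and 382 CPM in isoB nulls, against 436, 502, 596 and 482 CPM in isoB controls. CG30427 (2R, 506 codons) was at 184, 57.5, 143 and 209 CPM in isoB nulls, against 252, 293, 292 and 276 CPM in isoB controls. In these 4 genes isoB null 2 was less than 0.5 of the next lowest null, and none of them was called. Their log2 ratios of the rule were -0.85, -0.82, -0.73 and -0.90 with all nulls, and -0.60, -0.56, -0.49 and -0.64 without null 2.

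Over the 155 members, isoB null 2 was the lowest null for 88 (56.8%), where it was the lowest for 27.7% of all genes tested. It was under 0.5 of the next lowest null for 16 members (10.3%), against 1.52% of all genes. Null 1 was so for 3 members (1.94%, against 1.08% of all genes) and null 3 for 0 (against 0.645%). Null 4 was so for 5 members (3.23%, against 0.496% of all genes), so such an excess was not particular to null 2. Of the 16 members with null 2 under 0.5 of the next lowest null, 1 was called. Their isoB log2 ratio had a median of -0.80 with all nulls, -2.06 for null 2 alone and -0.56 without it, and 13 of the 16 no longer met the cutoff without it. Over all members the median was -0.89 with all nulls and -0.84 without null 2, and 106 of 155 stayed at -0.7 or below. Without null 2, edgeR called 66 members, and called lower 241 of all 10789 genes tested. Nulls 1, 3 and 4 lay below every control for 123 members against 15.4% of all genes. The library of null 2 held 25017424 counts, one of the deepest of the series.

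**Figure D3:**
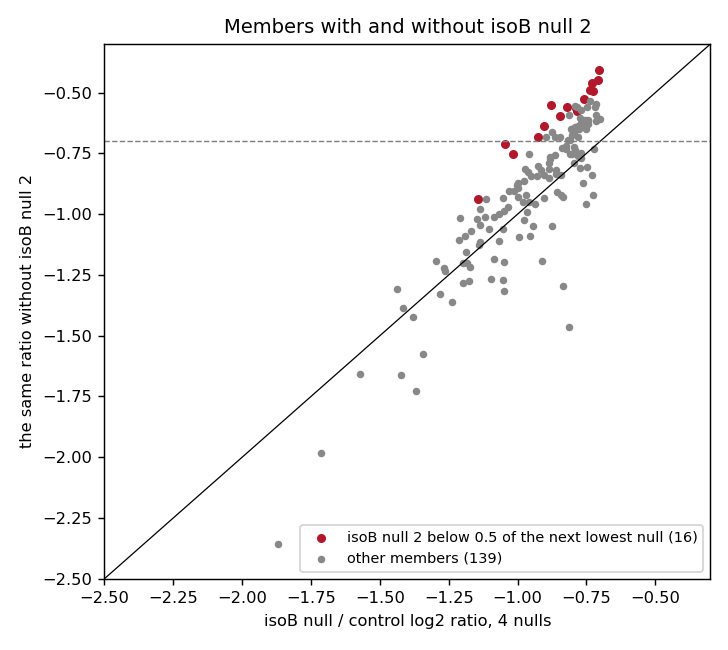
Log2 ratio of isoB null to isoB control mean CPM (plus 0.5) of each member with all 4 nulls (horizontal) and without isoB null 2 (vertical); the solid line marks equal values and the dashed line the cutoff at -0.7. The 16 members in which null 2 was under 0.5 of the next lowest null (red) all lie above the solid line, and 13 of them above the cutoff.

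A smaller group was lowest in isoB null 4. For 5 members (CG30371, CG33110, CG1304, CG14265 and CG30457) null 4 was under 0.5 of the next lowest null. These are 3.23% of the members, against 0.496% of all genes tested. CG14265 (X, 119 codons) was at 10.2, 9.59, 4.26 and 0.836 CPM in isoB nulls and 22.8, 10.3, 12.98 and 7.58 CPM in isoB controls. CG30457 (2R, 189 codons) was at 33.7, 67.5, 32.7 and 13.4 CPM in isoB nulls and 103, 62.8, 73.3 and 24.9 CPM in isoB controls. In both genes, as in CG33110 and CG34267, control 1 was the highest and control 4 the lowest isoB control, and isoA null 2 was the highest isoA null. The groups overlapped, and none of these 4 genes was called. CG34267 had a fitted log2 fold change of -0.93 with a standard error of 0.98, and without isoB control 1 it was 0.19, so the direction turned.

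The median log2 ratio of the members to the mean of their controls was -0.85, -1.25, -0.88 and -0.81 in isoB nulls 1 to 4, and -0.14, 0.11, 0.15 and -0.24 in isoB controls 1 to 4. In isoA it was -0.07, 0.09 and -0.20 in nulls and 0.20, 0.17 and -0.51 in controls. The same median over all genes tested lay between -0.07 and 0.09 in every sample. All isoB nulls lay below all isoB controls on this measure, whereas isoA control 3 lay below the 3 isoA nulls. It was the lowest isoA control for 124 members (80.0%), against 44.9% of all genes tested in both experiments, and for 15 of the 16 members in which isoB null 2 was under 0.5 of the next lowest null. With this control left out, the median isoA log2 ratio of the members was -0.20 rather than -0.05, and 53 members lay below -0.3 and 8 above 0.3. The near-zero isoA ratio by which the members were picked did not hold without that sample for 61 of 155.

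**Figure D4:**
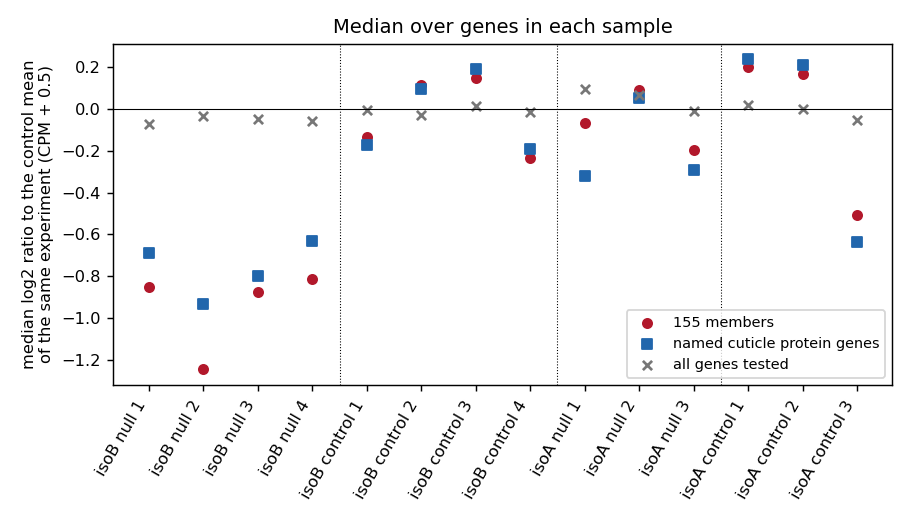
Median over genes of the log2 ratio of each sample to the control mean of its own experiment (CPM plus 0.5), for the 155 members (circles), the named cuticle protein genes (squares) and all genes tested (crosses). The members and the cuticle protein genes are low in the 4 isoB nulls and in isoA control 3, while all genes stay between -0.07 and 0.09.

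**Figure D5:**
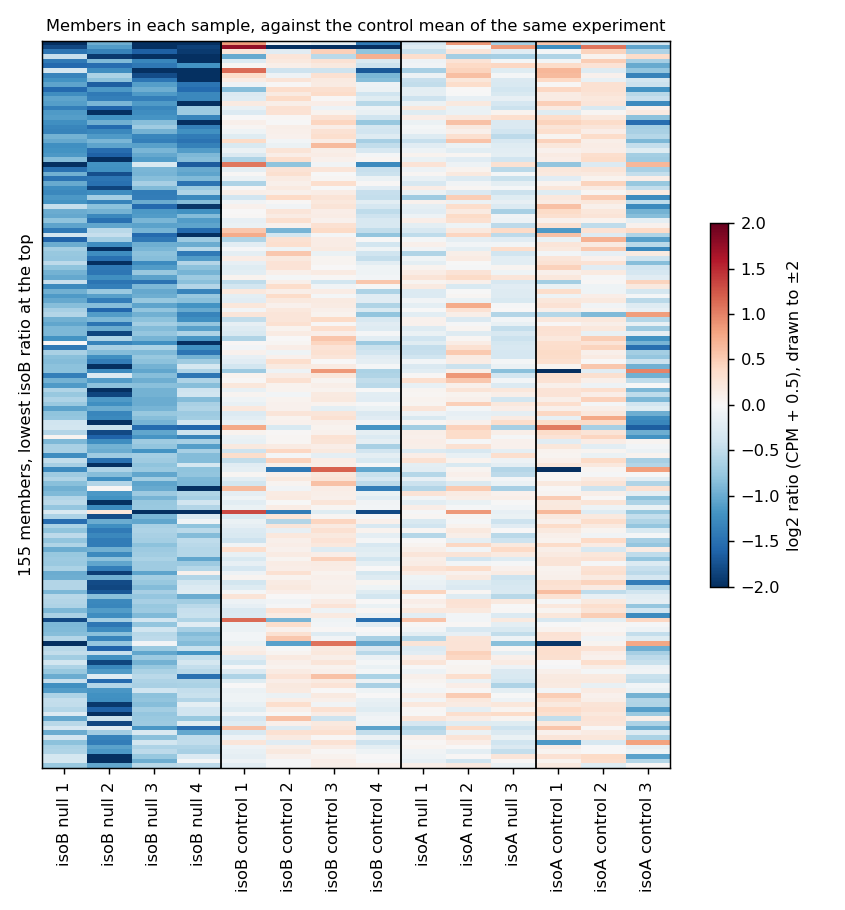
Log2 ratio of each member (rows, lowest isoB ratio at the top) in each sample (columns) to the control mean of the same experiment, drawn to ±2; blue is lower and red higher. The 4 isoB null columns are mostly blue, null 2 holds the darkest cells of the lower rows, and isoA control 3 is the bluest isoA column.

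Cuticle protein genes with a name (Cpr, Twdl, Lcp and related families), which by the rule cannot be members, were also low in the isoB nulls and in isoA control 3. Their median log2 ratio was -0.69, -0.93, -0.80 and -0.63 in isoB nulls 1 to 4 and -0.17, 0.09, 0.19 and -0.19 in isoB controls 1 to 4, and isoA control 3 was again the lowest isoA sample at -0.63. In isoA nulls 1 to 3 the cuticle genes were at -0.32, 0.05 and -0.29, where the members were at -0.07, 0.09 and -0.20. Of 93 cuticle protein genes tested in isoB, 30 were called lower and 0 higher, with a median log2 fold change of -0.83, while 3.58% of all genes were called lower and their median was -0.01. The count was 11 without isoB control 2 or without isoB control 3, 18 without isoB null 3 and 19 with a replicate block. Of 89 tested in isoA, 0 were called lower and 1 higher by edgeR, with a median of -0.20. DESeq2 called 7 of them lower and 3 higher, where it called 211 lower and 157 higher among all 10397 genes. Without isoA control 3, edgeR called 15 of 96 lower and 2 higher in isoA, with a median of -0.40. Among all 10665 genes of that fit, 135 were called lower and 48 higher. Among serine peptidases, 6 of 13 were called lower in isoB, with a median of -0.99, and 0 of 15 in isoA, with a median of -0.40. These medians depended on the filter. Without a filter, 6 of 28 were called lower in isoB, with a median of 0.19, and 0 of 30 in isoA, with a median of -2.05. Genes of the chitin matrix had 5 of 38 called lower and 1 called higher in isoB, with a median of -0.35. Without isoB control 2 or without isoB control 3, 2 serine peptidases and 1 chitin matrix gene were called lower, and without isoB control 1 it was 3 and 3. Leaving out isoB null 2 or isoB null 3 left 2 and 1 chitin matrix genes called lower, and the replicate block left 3 serine peptidases and 2 chitin matrix genes. Zona pellucida proteins of the epidermal matrix had 0 of 12 called lower and 1 called higher, with a median of 0.27, and genes of midgut digestion 2 of 11 called lower, with a median of -0.29. The zona pellucida genes called higher were 4 without isoB null 4 and 0 with the replicate block, and the digestion genes called lower were 1 without isoB control 2 or 3 and 0 with the block. In isoA edgeR called lower 0 of 36 chitin matrix genes, 0 of 12 zona pellucida proteins and 0 of 12 digestion genes, and called 1 digestion gene higher. DESeq2 called 4 chitin matrix genes and 1 serine peptidase lower there, and without isoA control 3 edgeR called 2 chitin matrix genes, 1 serine peptidase and 1 digestion gene lower. Whether the members and the cuticle genes share a cause was not tested.

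The members differed from other CG-numbered genes in properties that the rule did not use. All 155 matched a protein-coding gene of the annotation, with a median coding length of 311 codons (26 to 2113), against 418 codons in 3521 other CG-numbered genes at the same minimum of CPM. Coding lengths of at most 200 codons were found in 46 members (29.7%) and in 15.3% of the others, and 76 members (49.0%) had 1 or 2 exons, against 32.2%. Exons of another gene overlapped those of 26 members (16.8%) and of 37.9% of the others. The counting dropped reads that overlap more than 1 gene, so the counts of these 26 are uncertain. The members were spread over the X chromosome (28), 2L (22), 2R (21), 3L (46) and 3R (38), and 3L held 29.7% of them and 20.6% of the others. These are shares without a test, since the genes of 1 stretch are not independent.

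Members also stood close to each other. Another member lay within 20 kb of 36 members (23.2%), and a member lay within 20 kb of 9.23% of the other CG-numbered genes. These 36 formed 13 groups, and the largest held 7 members on 3L between 16264713 and 16327893 (Release 6 assembly), a stretch with 31 protein-coding genes. The 7 are CG13051, CG13048, CG13046, CG13043, CG13042, CG13059 and CG13038, with 83 to 206 codons. CG13059 was at 123, 93.7, 130.2 and 114 CPM in isoB nulls, against 197, 234, 261 and 189 CPM in isoB controls. CG13043 was at 96.7, 91.1, 98.5 and 85.0 CPM in isoB nulls, against 152, 190.1, 229.5 and 152 CPM in isoB controls. In both genes every null lay below every control and the call held when any 1 sample was left out. In the same stretch CG13048 was at 63.3, 10.1, 43.2 and 63.3 CPM in isoB nulls and 75.6, 88.7, 89.1 and 79.5 CPM in isoB controls, with null 2 far below the other nulls, and it was the only 1 of the 7 that was not called. Its log2 ratio of the rule was -0.88 with all nulls and -0.55 without null 2.

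The neighbours that were not members went the same way in isoB. All 20 genes of the 3L stretch that were tested in both experiments had a negative isoB log2 ratio, which the rule fixed for the 7 members. The 13 that were not members ran between -1.44 and -0.21, where the median over all genes tested in isoB was -0.02. Among the 13, CG13064 (-0.21) and CG34248 had means of 0.818 and 1.81 CPM, under the minimum of the rule. The stretch was picked for its members, so these values are a description. Of these 13, 6 were at -0.7 or below in isoB and were kept out by isoA alone. The isoA ratios of these 6 ran between -0.58 and 0.56, with 2 below -0.3 and 4 above 0.3. In the group of CG14457, CG14453 and CG45116 (3L, 22669956 to 22699870) the 3 other genes tested were at -1.26 to -0.74 in isoB and all below -0.3 in isoA.

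Further groups of 3 lay on X, 2R, 3L and 3R. On X between 1170828 and 1196660, CG11378 was at 21.7, 18.3, 32.9 and 20.98 CPM in isoB nulls, against 55.9, 58.6, 59.6 and 42.5 CPM in isoB controls, and CG11384 next to it was called as well. CG11380, in the same group, was at 116, 36.5, 87.8 and 123 CPM in isoB nulls and 132, 159, 156 and 149.6 CPM in isoB controls, and was not called. On 3L, CG6933 was at 46.0, 40.9, 49.5 and 44.9 CPM in isoB nulls, against 89.8, 124, 142 and 83.4 CPM in isoB controls, with a log2 fold change of -1.26 and a standard error of 0.17. Its neighbour CG7017 was at 64.1, 20.0, 27.0 and 24.2 CPM in isoB nulls and 56.9, 63.8, 75.9 and 51.4 CPM in isoB controls, where null 1 alone was at control level. On 2R, CG17290 and CG30457 overlapped between groups beside CG10953, which did not. On 3R, CG31265, CG31266 and CG5255 were all called, with log2 fold changes of -1.45, -1.30 and -1.01, at control means under 5 CPM.

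For 11 members the later annotation gives a name (7.10%, against 16.1% of the other CG-numbered genes). These names were looked up after the values were known. All 11 had every isoB null below every isoB control, against 14.01% of all genes, and 8 were called, against 3.58% called lower among all genes. The rule picked them on this contrast, so nothing is read from these counts. Dci (CG13890), an isomerase of fatty acid oxidation, was at 5.84, 5.96, 9.22 and 9.04 CPM in isoB nulls, against 15.7, 19.3, 17.7 and 15.8 CPM in isoB controls, a log2 fold change of -1.16 with a standard error of 0.18. Acsx4 (CG11453), of the acyl-CoA synthetase family, and Dgat2 (CG1942), which forms triglyceride from diglyceride, had log2 fold changes of -0.97 and -1.05 with standard errors of 0.16 and 0.23, and both were called. Elovl7 (CG2781) was at -0.83 with a standard error of 0.29 and was not. In isoA these 4 genes were at -0.37, -0.24, -0.19 and -0.29, and none was called. Ugt303B1 (CG16732), of the UDP-glycosyltransferases that couple sugars to small molecules, was called at -1.31. Alp5 (CG10827), an alkaline phosphatase, was called at -0.93, and Jhbp6 (CG14457), of the juvenile hormone binding protein family, at -1.01. Jhbp16 (CG15497), of the same family, was at -0.82 and was not called. Of the last 3 by name, fiz (CG9509) was called at -1.11, Vajk2 (CG16885) at -0.83, and flap (CG11073) was at -0.72 without a call.

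The rule was applied again after leaving out each of the 14 samples, and 28 of the 155 members met it every time, while the least stable met it in 7 of the 14. Their fitted log2 fold changes were -1.31 to -0.78 with a median of -1.02, on the same samples that the rule used. CG33127 (2L, 322101 to 323091, 284 codons), 1 of these 28, was at 10.8, 8.59, 13.4 and 11.5 CPM in isoB nulls, against 23.6, 30.5, 27.7 and 20.4 CPM in isoB controls. Its isoA samples were at 25.4, 23.6 and 23.5 CPM in nulls and 29.1, 29.8 and 22.8 CPM in controls, all within the range of the isoB controls. CG15422 (2L, 4004984 to 4005670, 104 codons) was at 9.32, 8.39, 10.8 and 11.8 CPM in isoB nulls, against 20.97, 22.4, 25.6 and 18.9 CPM in isoB controls.

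The pairs CG8773 with CG8774 and CG31343 with CG31198, each side by side on 3R, also belong to these 28. CG8773 (994 codons) was at 22.0, 12.5, 22.6 and 20.7 CPM in isoB nulls, against 43.9, 54.4, 43.3 and 31.9 CPM in isoB controls. CG8774 (942 codons) was at 34.8, 18.3, 31.9 and 27.2 CPM in isoB nulls, against 53.4, 64.5, 59.3 and 45.0 CPM in isoB controls. Both genes were lowest in null 2. CG31343 (961 codons) was at 43.2, 26.6, 40.0 and 34.5 CPM in isoB nulls, against 66.9, 94.2, 80.1 and 60.5 CPM in isoB controls. CG31198 (940 codons) was at 78.9, 47.7, 74.1 and 61.8 CPM in isoB nulls, against 149, 154, 139 and 96.5 CPM in isoB controls. In all 4 genes isoB null 2 was the lowest sample of the 8, and the other 3 nulls were still below every control. Their fitted isoA values lay between -0.10 and 0.06. Over all 155 members, 37 were called with all samples and also when any 1 sample of the isoB experiment was left out.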

How the data were processed

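The study's authors aligned single-end reads with TopHat2 2.1.1 and Bowtie2 2.3.4.0 and counted them per gene with Rsubread on the FlyBase Release 6 annotation. The deposited table holds raw counts, not normalized. The authors' deposited result tables repeat these counts (147926 of 147926 values equal) and add log2 CPM with the limma-voom statistics of the authors (a log2 fold change and p-values per gene), none of which was used here. Strand was ignored in counting, and reads on more than 1 gene were dropped.

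CPM was taken from column totals. Each experiment was fitted on its own in edgeR 4.0.16 (R 4.3.3): filterByExpr (minimum count 10, minimum total 15), TMM, quasi-likelihood test, Benjamini-Hochberg adjustment over all genes kept. Samples were grouped by their labels. The isoA samples are described as biological replicates, and for isoB nothing used here says so, so p-values measure only the spread between these samples, which may be technical. DESeq2 1.42.0, limma-voom (limma 3.58.1), RLE normalization, no filter, a replicate block and leaving out each sample were alternatives. The fits were tested on simulated data. Coordinates and names came from the Ensembl annotation of the same Release 6 assembly, which is later than the authors' and matched all 155 members. Genes named in the text are the 8 lowest in isoB, the 8 with the largest mean CPM, the 3 on either side of each cutoff and members of the largest neighbour groups (6 groups, since 5 tied at 3 members); the others were named after their values were seen. The members and lists were chosen with earlier results of these data known. Protein and promoter sequences were not analysed here. Counting error is all that a floor of 3 counts covers.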

Additional observations from a re-analysis of the deposited data

Results flagged for a closer look

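Among the 44 members named by rule, each group of 4 isoB samples was searched for a sample far from the other 3, in 88 groups in all, where chance gives about 1 in 20. There were 4 such samples, about as many as that rate gives, so they are listed only as a description. CG4830 was at 15.5 CPM in isoB control 1, against 0.219 to 0.624 CPM in the other isoB controls. CG9360 was at 135 CPM in isoB null 1, against 43.9 to 48.9 CPM in the other isoB nulls. CG7017 was at 64.1 CPM in isoB null 1, against 20.0 to 27.0 CPM in the other isoB nulls. CG14453 was at 38.9 CPM in isoB control 4, against 61.8 to 65.0 CPM in the other isoB controls. Without isoB control 1, CG4830 changed direction, to a log2 fold change of 1.07.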

How the results depend on the processing

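The rule gave 118 to 206 members when 1 sample was left out, and 126 with TMM library sizes, of which 117 were among the 155. Pseudocounts of 1 and 0.1 CPM gave 141 and 166. The count of 101 members called in isoB was 122 with DESeq2, 102 with limma-voom, 97 with RLE normalization and 93 without a filter, and 42 to 114 when 1 isoB sample was left out. The lowest, 42 each, came without isoB control 2 or 3, and 66 and 67 without isoB null 2 and 3. With a replicate block 38 members were called. Calls over all genes moved in the same direction. Of 10693 genes, 383 were called lower in the main fit, 456 with DESeq2, 392 with limma-voom, 352 with RLE normalization and 116 with the block. Without a filter it was 325 of 15349. It was 150 of 10812 and 137 of 10819 without isoB control 2 and 3. Without isoB null 2 and 3 it was 241 of 10789 and 232 of 10812. Deviations of null and control samples of the same number had correlations of -0.12, -0.19, 0.06 and 0.19. Number 4 was the only one whose samples were each other's best match. The highest correlation of any null with any control was 0.37, between isoB null 2 and isoB control 1. With so few samples these values cannot settle whether the numbers pair the samples. The median log2 fold change stayed between -1.04 and -0.86 in isoB and between -0.26 and -0.02 in isoA when 1 sample was left out, and 0 members were called in isoA under any alternative run. Of 572 values of the 44 members named by rule, 570 stayed negative. With 1 sample left out, CG4830 ran from -2.60 (without isoB null 2) to 1.07 (without isoB control 1) and CG34267 from -1.81 (without isoB null 2) to 0.19 (without isoB control 1). The cause of these changes was not tested. A fit without 1 sample has fewer samples behind it.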
